A study of Mus musculus with 15 samples.

Results

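The genes described here are Slit2, the sulfatases Sulf1 and Sulf2, the glypicans Gpc1, Gpc4 and Gpc6, and the syndecans Sdc1, Sdc2, Sdc3 and Sdc4. They were found by their gene name on the array, and they make up 10 of the 22032 gene symbols measured. They are read by 11 probes, 2 for Sulf1 and 1 for each of the others. The arrays carry labelled RNA from livers of CD1 male mice in 3 groups. Mice of group C (Control) were given saline and the empty plasmid, those of group T (DEN) were given the carcinogen diethylnitrosamine (DEN) and the empty plasmid, and those of group G (Gas1) were given DEN and a plasmid coding for an HA-tagged GAS1 protein under the CAG promoter. GAS1, the product of the growth arrest specific gene, is a membrane protein of the cell surface. All groups share the hydrodynamic delivery of plasmid (50 μg per injection), which reaches only a fraction of the liver cells. The study describes tumors in the livers of all DEN-treated animals. How much tumor and surrounding liver each RNA sample held is not given. The records give an age of 10 weeks. The study's text describes an older age at collection.

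Heparan sulfate is a long sugar chain that cells attach to a few core proteins. Syndecans span the membrane and carry such chains outside the cell, whereas glypicans hold them at the surface through a lipid anchor. The chains bind growth factors, morphogens and lipoproteins, and in liver the syndecans of hepatocytes take part in the clearance of lipoprotein remnants. Sulf1 and Sulf2 code for secreted enzymes that remove sulfate groups from finished chains and so alter which ligands bind. Slit2 codes for a secreted guidance protein that binds Robo receptors with heparan sulfate as a partner.

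The 15 arrays were spread over 2 slides, with every group on both. The pairs C3 with C4 and T4 with T5 bear a common RNA code and were averaged, which left 13 mice, namely 3 Control, 4 DEN and 6 Gas1. Between 15707 and 29765 spots per array were well above background, with medians of 19820.5 in the Control group, 20991 in the DEN group and 25491 in the Gas1 group. The tissue label was checked with 5 hepatocyte markers, and each gave a signal well above background on every array. The endogenous Gas1 probe read 6.53 ± 0.20 in the Control group (SD, n = 3), 6.53 ± 0.09 in the DEN group (n = 4) and 6.61 ± 0.11 in the Gas1 group (n = 6), all on the log2 scale. Its difference between Gas1 and DEN livers was 0.08 (limma adjusted p = 0.765), and whether that probe lies within the delivered sequence is not given in the sources used here.

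The probes of Slit2 and Sulf2 carry the differences described next, so their first 30 bases are shown 5′ to 3′, with purines (A and G) in capitals. Below them stand the probes of the genes whose level followed Slit2 or Sulf2 most closely over the 13 mice, because most of those probes share a feature of sequence with the Slit2 probe.
Slit2: GGGAGGGtGGGAGAAGAAAGActGttAtGt
Sulf2: GtAGGGGAAtctcActAAtAtGAAAtcccG
Hmx2: cttGAGGAtGGGtAGGGGcAAAAcGAGGAG
Ndc80: AGGAGGAAAGAGAAAGAGAAccGAAccGtc
Olfr1490: AGtGAGAtGAAAGGGGccAtAGGAAAAGtG
Olfr110: GAGGctAtGAAGGccAtAGGGAGAAAGtGG
Nxt2: GtAtGActttAAAtGGctGGAActGctcAt

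On the mm9 build, the array design places the Slit2 probe at chr5:48696673-48696732 on the plus strand and the Sulf2 probe at chr2:165899667-165899726 on the minus strand. The other member probes lie at chr1:12849507-12849566 and chr1:12850302-12850361 (Sulf1), chr1:94756711-94756770 (Gpc1), chrX:49406560-49406619 (Gpc4), chr14:118375311-118375370 (Gpc6), chr12:8799383-8799442 (Sdc1), chr15:32964204-32964263 (Sdc2), chr4:130382015-130382074 (Sdc3) and chr2:164251211-164251270 (Sdc4). Their place within exons or untranslated regions was not analysed here.

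Slit2 was lower in DEN livers than in saline livers, and Sulf2 was lower too. These 2 members passed the test between DEN and Control livers, out of 10, where 2.37% of all genes did (259 higher and 264 lower). When arrays were scaled to a common median instead, that split became 2861 higher and 15 lower. No member passed the test between Gas1 and DEN livers, where 0.132% of all genes did, and 2 of the 10 members had an unadjusted p under 0.05, against 10.8% of all genes. None passed between Gas1 and Control livers either, where 0.427% of all genes did, and 3 of the 10 had an unadjusted p under 0.05, against 13.3% of all genes. The comparisons share groups of mice and are therefore not independent of each other. The members were chosen with earlier results of these data known. The study itself names Slit2 and Sulf1 among the genes restored after Gas1 transfection. Counts of members, here and below, can therefore not be read as an excess over all genes.

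**Figure D1:**
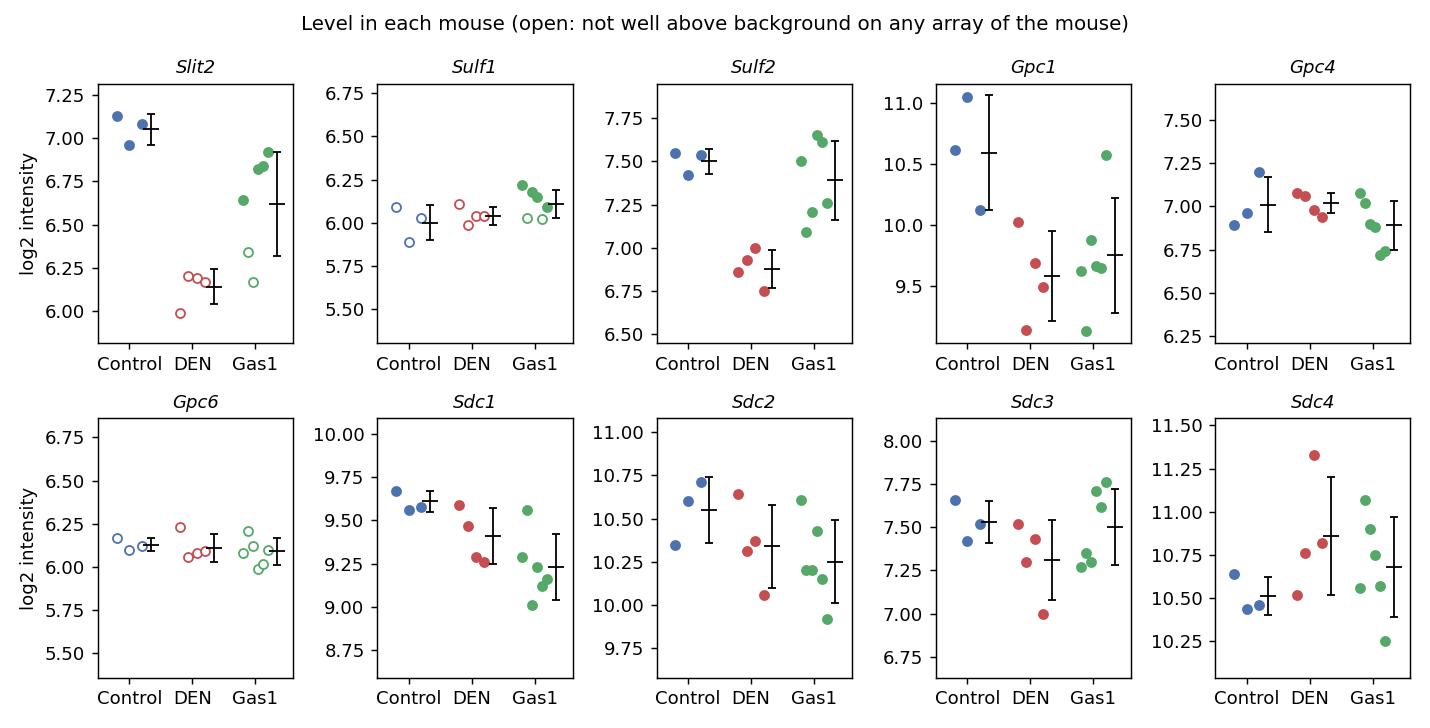
Level of each member in each mouse, as log2 intensity (y axis) by group (x axis). Filled points were well above background on at least 1 array of the mouse and open points on none, bars give the mean ± SD of the group, and each panel has its own range. The 3 points of Slit2 in the Control group lie between 6.96 and 7.13, above the 4 of the DEN group, which lie between 5.99 and 6.20.

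Slit2, the ligand of the Robo receptors, read 7.13, 6.96 and 7.08 in the mice of the Control group on the log2 scale. In the DEN group it read 5.99, 6.20, 6.19 and 6.17, and in the Gas1 group the values ran from 6.17 to 6.92 with a median of 6.73. Every mouse of the Control group was above every mouse of the DEN group, and the mice of the Gas1 group spread from the level of the DEN group almost to that of the Control group. The mean fell by 0.92 from the Control group to the DEN group (log2 difference, SE 0.16, 95% interval -1.26 to -0.58, limma adjusted p = 0.0166). Its signal passed the background limit on 4 of 4 Control arrays, 0 of 5 DEN arrays and 4 of 6 Gas1 arrays. The DEN group therefore has only a limit, and on these normalized values Slit2 was at least 1.73-fold higher in the Control group than in the DEN group. That limit holds for this normalization alone, since the difference was -0.61 with median scaling and -0.53 with base composition adjusted, as given below. Between Gas1 and DEN livers the log2 difference was 0.49 (SE 0.13, 95% interval 0.20 to 0.77), and it did not pass the test (limma adjusted p = 0.171). Between Gas1 and Control livers the difference was -0.43 (SE 0.14, 95% interval -0.75 to -0.12, limma adjusted p = 0.215), and the mice of these groups did not overlap.

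As the RNA comes from whole liver, fewer cells of a type and less RNA per cell cannot be told apart. Slit2 is known in stellate cells and fibroblasts, and 5 of the 8 markers listed for those cells were well above background on all arrays, with none at background on every array. Their summed level, over the 7 with a value in every mouse, ran from 9.71 to 10.32 in the Control group, from 9.64 to 9.99 in the DEN group and from 9.64 to 10.45 in the Gas1 group (log2 of the sum). The ranges overlap, and 0 of the 8 markers passed the test by limma between DEN and Control livers. In that comparison 1 of the 8 had a positive difference, the median difference was -0.26 and 2 had an unadjusted p under 0.05. Between Gas1 and DEN livers 7 of the 8 had a positive difference, with a median of 0.21, and 0 passed by limma (2 at an unadjusted p under 0.05). The marker outside the sum is Dcn, which codes for the matrix proteoglycan decorin and had no value in mice G4 and G5. It differed by -0.82 between DEN and Control livers (limma adjusted p = 0.0947) and by 0.63 between Gas1 and DEN livers (limma adjusted p = 0.337). Of 52 markers of 9 cell classes, 2 passed the test between DEN and Control livers, against 2.37% of all genes. The 2 were the hepatocyte transthyretin gene Ttr at -1.0 and the macrophage gene Emr1 at 0.31, and 7 lists had no call. Their own lists were mixed. Of the 5 hepatocyte markers 2 had a positive difference (Apoa1 at 0.55), and of the 6 macrophage markers 4 did, with Cd68 at -0.25. The summed level of the 5 hepatocyte markers ran from 19.62 to 19.67 in the Control group, from 19.36 to 19.54 in the DEN group and from 19.40 to 19.58 in the Gas1 group. The part of these cells in the differences of Slit2 and Sulf2 was not tested.

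Without mouse C1 the adjusted p of Slit2 between DEN and Control livers was 0.0593, and on either slide alone the difference was -0.92 or -0.90 without a call (adjusted p = 0.216 and 0.0765). It also missed the threshold with median scaling, at -0.61 (adjusted p = 0.0698), and with the software's processed signal, at -3.43 (adjusted p = 0.055). By the methods' t-test with Benjamini-Hochberg adjustment, -0.92 had an adjusted p of 0.0691, or 0.149 where unequal variances were allowed. The methods state that test for cells, groups of animals and RT-PCR. For the arrays they name the multtest package without a statistic, so the study's own array test was not repeated here. The log2 difference of Slit2 stayed below 0 under all 16 other settings.

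The 3 genes closest to Slit2 over the 13 mice, each centred on its own mean, were Hmx2, Ndc80 and Olfr1490, with root mean square differences of 0.07, 0.13 and 0.14 among 20431 genes with a value in every mouse. Hmx2, a homeobox factor, read 6.97 ± 0.10 in the Control group (SD, n = 3), 5.97 ± 0.18 in the DEN group (n = 4) and 6.42 ± 0.29 in the Gas1 group (n = 6). Ndc80, a kinetochore component, differed by -0.69 between DEN and Control livers (limma adjusted p = 0.0457). Olfr1490, an olfactory receptor gene, differed by -0.61 (limma adjusted p = 0.0494). Hmx2, Ndc80 and Olfr1490 were chosen for their likeness to Slit2 over the same mice. Their differences between groups therefore follow from that choice and are no separate evidence. The closest genes to Sulf2 were Olfr110, Nxt2 and Olfr1490, with root mean square differences of 0.15 each. Of the 15 arrays, Hmx2 was well above background on 8, Ndc80 and Olfr1490 on 7, Olfr110 on 5 and Nxt2 on 15. Apart from Nxt2, these genes were thus close to background on many arrays, which limits their differences.

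The sequences shown above have a count in common. The first 30 bases hold 23 purines in the probe of Slit2, 23 in that of Hmx2, 24 in those of Ndc80 and Olfr1490 and 23 in that of Olfr110, whereas the Sulf2 probe has 17 and the Nxt2 probe 15. The median over all probes was 15, and 1.69% of probes had 23 or more. This count was looked at after the list of like genes had been seen.

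Among probes whose mean level lay within 1 log2 unit of the Slit2 probe, the difference between DEN and Control livers fell as the purine number rose. This window is wide. It held 46306 of the 55681 probes, including probes well above background on no array, such as that of Gpc6. The median difference was 0.04 at 12 purines, 0.01 at 15, -0.02 at 17, -0.09 at 20, -0.24 at 23 and -0.44 at 25 or more. The median difference between Gas1 and DEN livers ran the other way, from -0.03 at 12 purines to 0.14 at 23. Of the 406 such probes with 23 purines, 4.68% had a difference between DEN and Control livers at or below that of Slit2. Probes with a mean level above 9 showed no such fall, with a median of 0.12 at 23 purines over 42 probes.

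**Figure D2:**
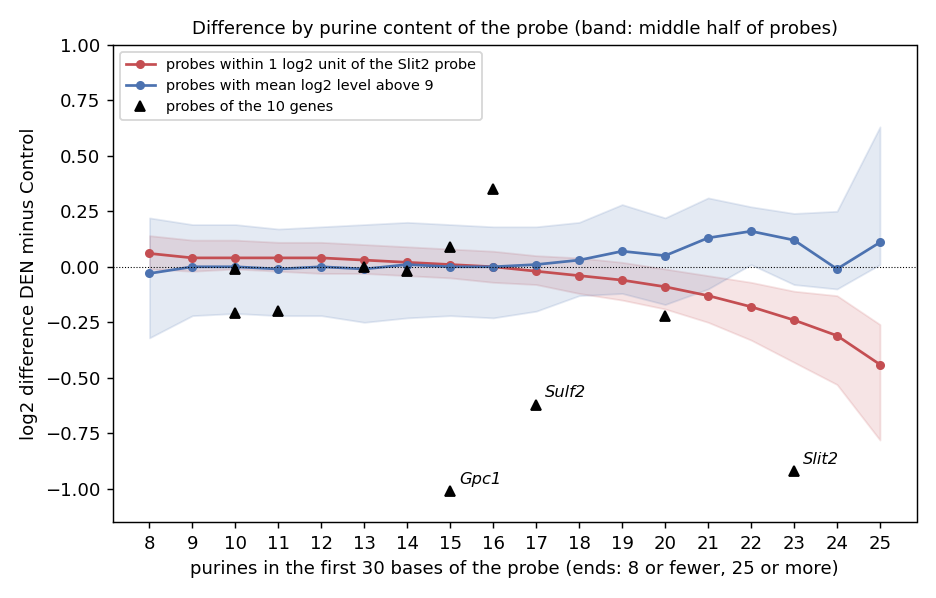
Log2 difference between DEN and Control livers (y axis) against the number of purines in the first 30 bases of the probe (x axis). Lines give medians and bands the middle part of the probes between quartiles. Red marks the 46306 probes with a mean level within 1 log2 unit of the Slit2 probe, and blue marks bright probes. Triangles are the probes of the 10 genes. The red line falls to -0.24 at 23 purines, and Slit2 lies below it at -0.92.

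Mouse by mouse, 661 probes of this level have 23 or more purines and a value in every mouse, with the members left out. Each was centred on its own mean, and all Control mice were above all DEN mice in their median. It was 0.27, 0.02 and 0.15 in the mice of the Control group. In the DEN group it was -0.18, -0.14, -0.14 and -0.15. In the Gas1 group the mice numbered 2 and 3 were lowest with -0.13 and -0.18, and these were also the lowest 2 mice of that group for Slit2. Over the 22918 probes of this level with 15 or fewer purines the medians lay between -0.03 and 0.02 in every mouse.

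**Figure D3:**
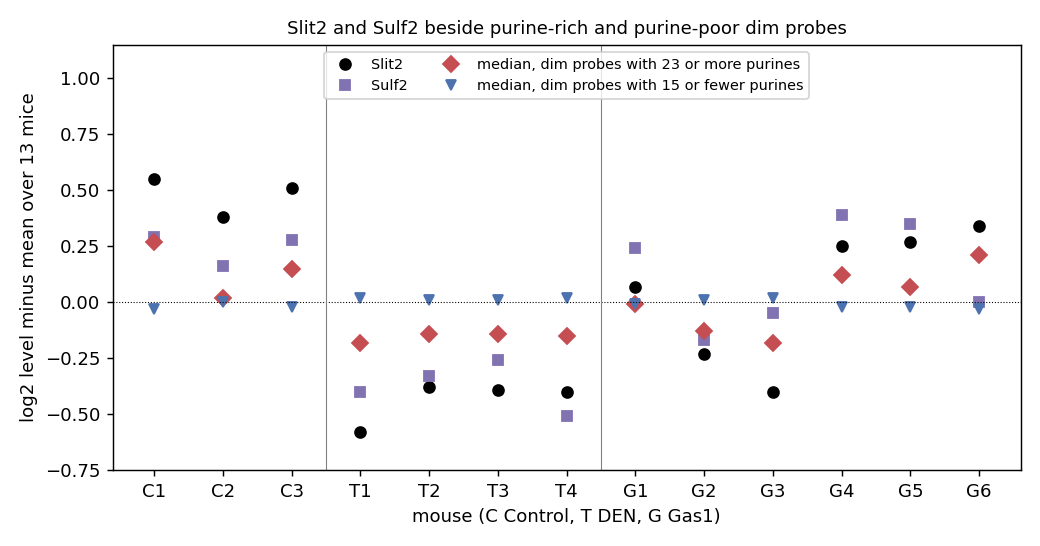
Level of Slit2 and Sulf2 in each of the 13 mice, minus its mean over all mice (y axis, log2), beside the median of purine-rich and of purine-poor probes of a level within 1 log2 unit of the Slit2 probe. Slit2 lies between -0.58 and -0.38 in the DEN group, where the purine-rich median lies between -0.18 and -0.14.

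When the median over probes of like level and purine number was subtracted on each array, an alternative chosen after seeing the data, the Slit2 difference between DEN and Control livers became -0.53 (SE 0.07, limma adjusted p = 0.00808). The difference of Slit2 between Gas1 and DEN livers became 0.26 (SE 0.06, limma adjusted p = 0.131). The median was taken over 207 probes for Slit2. For Sulf2 the same step gave -0.63 and 0.53, against -0.62 and 0.51 without it.

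Sulf2, the extracellular sulfatase, read 7.55, 7.42 and 7.54 in the mice of the Control group on the log2 scale. It read 6.86, 6.93, 7.0 and 6.75 in the DEN group, and between 7.09 and 7.65 in the Gas1 group, with a median of 7.38. All mice of the DEN group were below all mice of both other groups, while the Gas1 and Control mice overlapped. The probe was well above background on all 15 arrays. The mean fell by 0.62 from the Control group to the DEN group (log2 difference, SE 0.13, 95% interval -0.89 to -0.35, limma adjusted p = 0.0296). That is 1.54-fold on these normalized values, which carry an offset of 50. From the DEN group to the Gas1 group the mean was 0.51 higher (SE 0.11, 95% interval 0.28 to 0.74), and this missed the threshold (limma adjusted p = 0.0883). With all arrays taken as separate mice, the same difference was 0.53 with an adjusted p of 0.0286. Between Gas1 and Control livers the difference was -0.11 (95% interval -0.37 to 0.14, limma adjusted p = 0.733). Median scaling reduced the difference between DEN and Control livers to -0.12 (limma adjusted p = 0.807), or -0.24 relative to the median of all genes, which that scaling moved to 0.12. On the software's processed signal, used without that offset, the difference was -1.01 (limma adjusted p = 0.0646). Relative to the median of all genes there, which was -0.4, it was -0.61. Within the slides the difference was -0.52 and -0.79, each without a call. The call was also lost when any 1 Control or DEN mouse other than T1 was left out, with adjusted p of at most 0.0974.

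Sulf1, the sister enzyme, was near background. Its gene level ran from 5.89 to 6.09 in the Control group, from 5.99 to 6.11 in the DEN group and from 6.02 to 6.22 in the Gas1 group. The probe at the higher coordinate was well above background on 4 arrays of the Gas1 group and the other probe on 1, and neither was on any Control or DEN array. The differences were 0.04 between DEN and Control livers (95% interval -0.10 to 0.18, limma adjusted p = 0.787) and 0.07 between Gas1 and DEN livers (95% interval -0.05 to 0.19, limma adjusted p = 0.690). These are differences between values close to background and were not taken as folds.

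**Figure D4:**
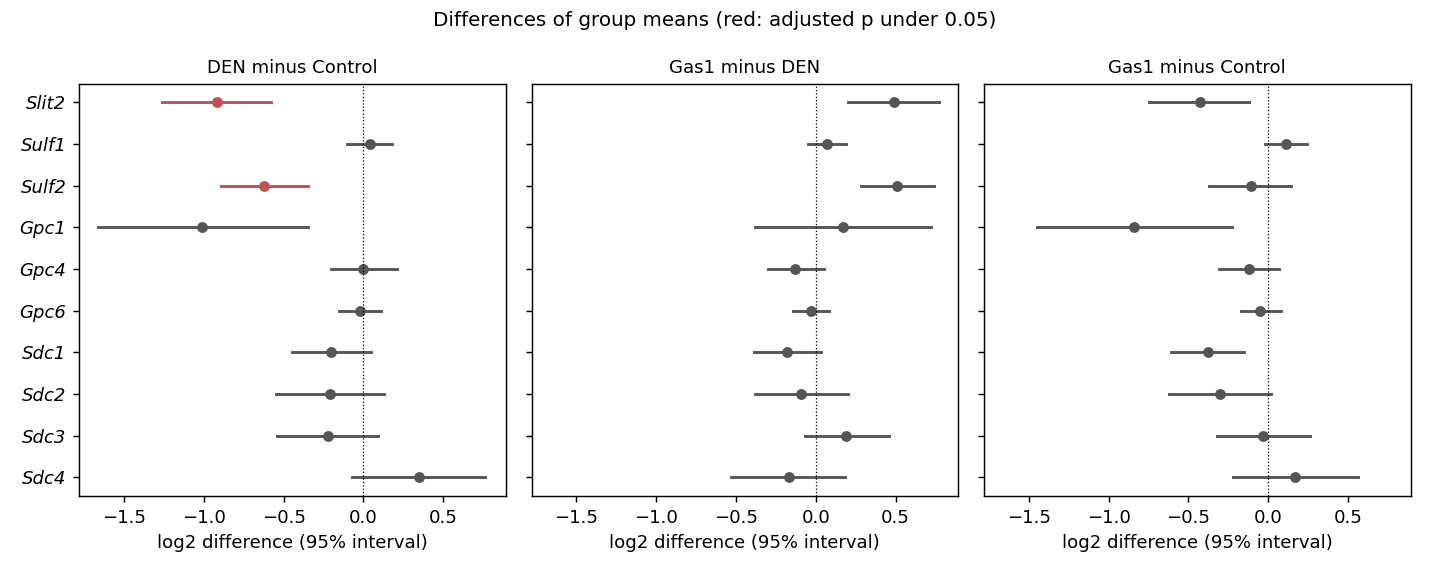
Log2 difference of each member (x axis) in each of the 3 comparisons, with its 95% interval. Slit2 and Sulf2, in red, passed the test between DEN and Control livers at -0.92 and -0.62, and no member did in the other 2 panels.

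Among the glypicans, Gpc1 had the widest spread. It read 10.61, 11.05 and 10.12 in the Control group and 10.02, 9.14, 9.69 and 9.49 in the DEN group. In the Gas1 group it ran from 9.13 to 10.57 with a median of 9.66. All mice of the Control group were above all mice of the DEN group, but mouse G6 lay well above the others of its group. The difference between DEN and Control livers was -1.01 (SE 0.30, 95% interval -1.66 to -0.35), and it did not pass the test (limma adjusted p = 0.0926). Over the 16 other settings it ran from -1.26 to -0.04, with adjusted p from 0.0408 to 0.97. The smallest difference came with median scaling, where it was -0.16 relative to the median of all genes, and the lowest adjusted p came with all arrays taken as separate mice, at -0.91. Without mouse G6 it passed the test as well (limma adjusted p = 0.0457). That between Gas1 and Control livers was -0.84 (95% interval -1.45 to -0.23, limma adjusted p = 0.214), and that between Gas1 and DEN livers was 0.17 (95% interval -0.38 to 0.72, limma adjusted p = 0.859).

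Slit2, Sulf2 and Gpc1 were the 3 members whose DEN and Control mice did not overlap, where 19.1% of all genes had no overlap. In the Gas1 and DEN mice it was Sulf2 alone, against 3.1% of all genes. In the Gas1 and Control mice it was Slit2 and Sdc1, against 5.95% of all genes.

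Gpc4 was well above background on all arrays and did not pass the test in any comparison, at 7.01 ± 0.16 in the Control group (SD, n = 3), 7.02 ± 0.06 in the DEN group (n = 4) and 6.89 ± 0.14 in the Gas1 group (n = 6). Its difference between DEN and Control livers had a 95% interval from -0.20 to 0.21. Gpc6 was well above background on no array, and its readings lay between 5.99 and 6.23 in all mice.

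The syndecans, some of which hepatocytes carry on their surface, were well above background on all arrays, and none passed the test in any comparison. Sdc1 read 9.61 ± 0.06 in the Control group (SD, n = 3), 9.41 ± 0.16 in the DEN group (n = 4) and 9.23 ± 0.19 in the Gas1 group (n = 6). The highest mouse of the Gas1 group, at 9.56, was just under the lowest of the Control group, and the difference between these groups was -0.38 (SE 0.11, 95% interval -0.61 to -0.15, limma adjusted p = 0.148). Sdc2 read 10.55 ± 0.19, 10.34 ± 0.24 and 10.25 ± 0.24 in the Control, DEN and Gas1 groups. Sdc3, a syndecan best known from the nervous system, read 7.53 ± 0.12, 7.31 ± 0.23 and 7.50 ± 0.22. Sdc4, found at focal adhesions, read 10.51 ± 0.11, 10.86 ± 0.34 and 10.68 ± 0.29. Between DEN and Control livers the differences were -0.20, -0.21 and -0.22 for Sdc1, Sdc2 and Sdc3 and 0.35 for Sdc4, none past the test, and median scaling turned the first 3 to 0.71, 0.77 and 0.32. The 95% intervals were -0.45 to 0.05, -0.55 to 0.13, -0.54 to 0.09 and -0.07 to 0.76 in the same order. From DEN to Gas1 livers they were -0.39 to 0.03, -0.38 to 0.20, -0.07 to 0.46 and -0.53 to 0.18. With median scaling Sdc4 passed the test at 1.32 (limma adjusted p = 0.0399). That scaling called 2876 of all 22032 genes between DEN and Control livers, 2861 of them higher. Relative to the median of all genes, it gave 0.59, 0.65, 0.2 and 1.2 for Sdc1, Sdc2, Sdc3 and Sdc4.

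The other genes of the pathway were counted in 7 lists with 71 genes, of which 39 were well above background on all arrays. Between DEN and Control livers, 1 of the 71 passed the test, against 2.37% of all genes, and 11 had an unadjusted p under 0.05, against 20.2% of all genes, and the median difference was 0.03. From DEN to Gas1, 0 passed by limma, 4 had an unadjusted p under 0.05 (10.8% of all genes did), and the median was -0.02. For Gas1 against Control, 0 passed by limma and 7 had an unadjusted p under 0.05 (13.3% of all genes did). With median scaling 12 of these genes passed between DEN and Control livers, where 2876 of all 22032 genes did (2861 of them higher). Over all genes the medians were 0.005, -0.008 and -0.004 in the 3 comparisons.

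The gene that passed was Gpc3, a glypican known as a marker of hepatocellular carcinoma. Its mean was 0.49 higher after DEN than after saline (SE 0.12, 95% interval 0.24 to 0.75, limma adjusted p = 0.0493). Its level was 5.96, 5.94 and 5.93 in the Control group and 6.26, 6.39, 6.25 and 6.85 in the DEN group, with no overlap. The 2 probes of Gpc3 disagreed, with differences of 0.96 and 0.02, and neither passed the test over all probes (limma adjusted p = 0.0548 and 0.893). The first was well above background on 0 of 4 arrays of the Control group and on 5 of 5 of the DEN group, so on the same normalized values it was at least 1.47-fold higher there. Gpc3 differed between Gas1 and DEN livers by -0.36 (limma adjusted p = 0.178). The call was lost when any 1 of 11 of the 13 mice was left out (the exceptions were T1 and T4).

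**Figure D5:**
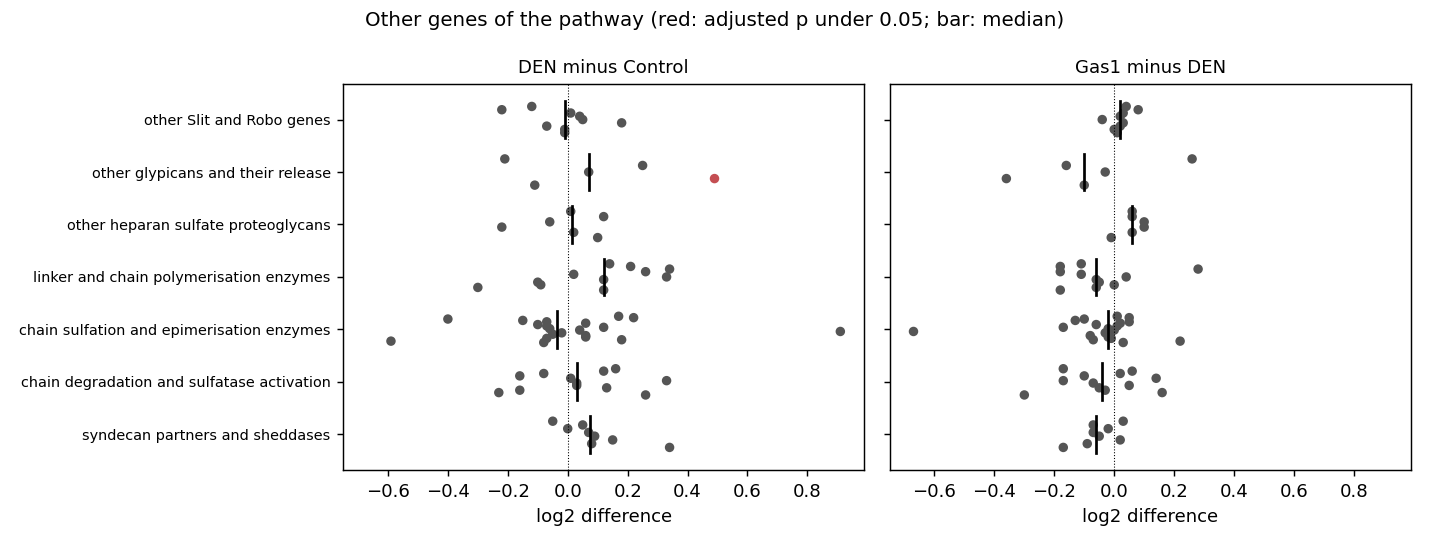
Log2 difference (x axis) of each other pathway gene, by list, between DEN and Control livers and between Gas1 and DEN livers, with a bar at the median of the list. Gpc3, in red at 0.49, was the only one to pass the test in these 2 comparisons.

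None of the 9 other Slit and Robo genes passed the test in any comparison. Of the Robo receptors and their partners, Srgap2, a signalling partner, differed by -0.22 between DEN and Control livers and the endothelial receptor Robo4 by 0.18. Among 6 other heparan sulfate proteoglycans, Col18a1 differed by -0.22 and Srgn by 0.12. Among the 11 enzymes that start and lengthen the chains, the linker kinase Fam20b differed by 0.34 and Extl1 by 0.33. Among the 20 genes listed for chain sulfation and epimerisation, Hs3st6 differed by 0.91 (SE 0.30, limma adjusted p = 0.128) and Hs2st1 by -0.59 (SE 0.52). Hs3st6 read 7.51 and 7.25 in 2 mice of the Control group, the third being masked, and 7.63 to 8.81 in the DEN group. Among 12 degradation genes Arsg, a lysosomal sulfatase, differed by 0.26. Among 8 partners and sheddases, the protease Adam10 differed by 0.34 (limma adjusted p = 0.0806) and the scaffold Cask by 0.15. None of these 11 genes passed the test.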

How the data were processed

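Liver RNA of 3 groups was labelled with Cy3 and measured on Agilent mouse arrays. The authors deposited the scanner intensity of each spot, extracted with Feature Extraction 10.7.3.1 and not normalized between arrays, and a table of log2 values after normexp and quantile normalization. From the deposited intensity, normexp (offset 50) was applied to all spots, and quantile normalization to the 59305 spots without controls. Outlier-flagged spots were then left out. Against the authors' log2 table, 99% of gene values lay within 0.05. Probes of a gene were centred and averaged, with no filter on dim probes. Arrays of 1 RNA code were averaged when the SD of their difference was below 0.7 times that of the next pair. Groups were compared in 1 fit with limma 3.58.1 in R 4.3.3 (lmFit, eBayes), with Benjamini-Hochberg adjustment over all genes and a threshold of 0.05. The p-values measure the spread between these samples. A fold against a group with no signal well above background is a lower limit, set by the weakest signal called well above background on its arrays. The script was tested on simulated data. The members and lists were chosen with earlier results of these data known. All members were named, with the genes that passed in each list (otherwise the 2 with the largest difference between groups T and C among those well above background on all arrays) and the 3 genes most like Slit2 and Sulf2. A gene that the rule names is not reported here. Markers of 9 other cell classes were counted. Number of mice limits the precision, as arrays have no read depth. The records name a TRIzol extraction, the methods a spin-column kit.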

Additional observations from a re-analysis of the deposited data

Results flagged for a closer look

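Slit2 in mouse 1 of group T read 5.99 (log2 intensity), against 6.17 in the next mouse of its group, and this gap was large relative to the range of the group. Slit2 was well above background on 0 of 5 arrays of group T, so the gap lies between values near background. With 44 groups of mice tested in this way, chance flags about 1 in 20.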

How the results depend on the processing

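The calls were computed under 16 other settings and with each of the 13 mice left out. The number of members called between DEN and Control livers was 2 in the report. It was 0 on the processed signal, within slide 1, within slide 2 and by a t-test with equal variances or with Welch's statistic. Over all genes, 57 of 22032 passed on the processed signal, 46 of 21923 within slide 1 and 17 of 22027 within slide 2. Either t-test called 0 of 22000 genes, so no member could pass there. The number of members called was 1 with median scaling (Sdc4), and 3 with all arrays as separate mice (Gpc1 added). It ranged from 0 to 3 over the mice left out (3 without G6). The same count over probes was 0 under those settings and with median scaling, and 0 to 2 over the mice. Of the pathway genes, 1 passed in the report, against 0 on the processed signal, within slide 1, within slide 2, by either t-test, with the plain mean of probes and with base composition adjusted, 2 with the filter on dim probes, the brightest probe or the slide term, 4 with all arrays separate and 12 with median scaling (0 to 2 over the mice). All arrays as separate mice gave 1 member (Sulf2) between Gas1 and DEN livers. The numbers in the titles did not pair the mice (10 pairs of deviations correlated from -0.31 to 0.25). With the replicate block, 1 member, 1 probe and 0 pathway genes passed between DEN and Control livers. Over all genes the calls of the 3 comparisons ran from 0 to 2876, from 1 to 268 and from 0 to 338. In the report they were 523, 29 and 94. Over the mice left out they ran from 95 to 746, 4 to 117 and 8 to 202. The 2876 calls between DEN and Control livers came with median scaling, and all arrays as separate mice gave 1949. In that comparison the filter on dim probes called 703 of 10493 genes. Of all 22032 genes, the brightest probe called 582, the slide term 814 and the plain mean of probes 443. Base composition adjusted called 466 and the replicate block 278. The split of higher and lower was 2 and 1 (Gas1 and DEN) and 1 and 0 (Gas1 and Control) on the processed signal.

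Directions turned as follows, all without a call. Median scaling, which moved the median of all genes to 0.12, gave between DEN and Control livers 0.71 for Sdc1, 0.77 for Sdc2, 0.32 for Sdc3, 0.2 for Srgap2, 0.78 for Col18a1 and 0.21 for Hs2st1. Between Gas1 and Control livers it gave 0.4 for Sulf2, 0.02 for Gpc1, 0.21 for Gpc4, 0.43 for Sdc1, 0.55 for Sdc2 and 0.48 for Sdc3. The processed signal, with a median of all genes of -0.40 between DEN and Control livers, gave -0.87 (Sulf1, DEN and Control), 0.2 (Gpc6, Gas1 and DEN) and -0.23 (Sulf1, Gas1 and Control). Sulf1 turned to -0.01 with the brightest probe and to -0.02 with base composition adjusted. Within slide 1, Gpc6 was 0.02 and Robo4 -0.25 (DEN and Control), Sdc2 0.01 (Gas1 and DEN) and Sdc3 0.03 (Gas1 and Control), and within slide 2 Gpc1 was -0.26 (Gas1 and DEN). The replicate block gave 0.01 for Gpc6 (DEN and Control), and -0.01 for Gpc1 and 0.01 for Sdc2 (Gas1 and DEN). Over the mice left out, the DEN and Control difference ran from -0.02 to 0.08 for Sulf1, from -0.05 to 0.01 for Gpc6 and from -0.01 to 0.3 for Robo4, the Gas1 and DEN difference from -0.05 to 0.01 for Gpc6 and from -0.19 to 0.01 for Sdc2, and the Gas1 and Control difference from -0.09 to 0.04 for Sdc3. The cause of these changes was not tested. Gpc6 on all arrays, Sulf1 on the Control and DEN arrays and Slit2 on the DEN arrays were not well above background, which limits their differences.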
